A study of Mus musculus with 24 samples.

Results

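The clustered protocadherins are 3 neighbouring gene families on mouse chromosome 18, here 57 of the 35591 genes of the count table, taken by their symbols alone. They comprised 14 alpha members (Pcdha), 22 beta members (Pcdhb) and 21 gamma members (Pcdhg), and the clusters were treated separately. RNA was sequenced from mouse embryonic stem cells during differentiation towards neuromesodermal progenitors, cells of the early body axis that form both spinal cord and mesoderm. The comparison asked whether cells with a deletion on 1 copy of Smchd1, a chromatin protein of the SMC (structural maintenance of chromosomes) family, differed from control cells.

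The 24 libraries came from 3 wt lines with the genotype Smchd1[fl/+] and 3 het lines with the genotype Smchd1[del/+], each sampled on 4 days, which gave 8 groups of 3. By the study's methods, the lines were male and came from separate blastocysts of Castaneus mothers and C57BL/6 fathers that were Smchd1 del/fl and carried MMTV-Cre, so that in het lines the deleted allele was the paternal one. Both genotypes thus shared the mixed strain background, and the wt lines carried an intact floxed allele. Day 0 cells were stem cells in DMEM with LIF, the medium was then N2B27 with basic FGF, and the Wnt pathway activator CHIR99021 was added from day 2, with harvests on days 2, 2.5 and 3. The line was the replicate, and a line number on different days of a genotype stood for the same cell line. Whether a line carried the Cre transgene is not given in the sources used here.

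Clustered protocadherins are adhesion proteins of the cadherin superfamily that bind the same isoform on a neighbouring cell, and in neurons their combinations give each cell an identity used in self-avoidance. In the alpha and gamma clusters each member has its own promoter and a large variable exon, which is spliced to constant exons common to the whole cluster, whereas beta genes have no constant exons. Most variable exons are chosen at random in each neuron, with CTCF and cohesin joining a promoter to distant enhancers, while the C-type members (Pcdhac1, Pcdhac2, Pcdhgc3, Pcdhgc4 and Pcdhgc5) are expressed more uniformly, and Smchd1 takes part in the silencing of the clusters.

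Libraries held 7102655 to 20818018 counts. Smchd1 was lower in the het lines than in the wt lines on every day with no overlap, for example 106 ± 1.83 against 193 ± 23.1 CPM (counts scaled to library size, mean ± SD, n = 3) at day 3, and by a log2 fold change of -0.76 on counts summed per line (SE 0.07, edgeR adjusted p = 0.00556). Of the markers that define the cells, pluripotency genes were lower at day 2 than at day 0 (11 of 11 in both genotypes, against 3394 of 15521 genes in wt and 4300 of 15303 in het), and the 10 neuromesodermal progenitor and primitive streak genes summed to 3.13 to 7.57 CPM in day 2 libraries and 693 to 1374 CPM in day 2.5 libraries. Endoderm markers were also present, and at day 2 they summed to 7514 to 15368 CPM in wt and 4562 to 6341 CPM in het, with 10 of 14 tested lower in het, against 77 of 15414 genes lower in all. Without het line 1 or without het line 3, 0 genes were called lower, so these calls did not hold with a line left out. In these bulk samples, fewer cells of a type and less RNA per cell cannot be told apart.

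Along chromosome 18 (GRCm38), the alpha members lay between 36930184 and 37187661, the beta members between 37264938 and 37524479 and the gamma members between 37661793 and 37841873, and all were on the forward strand. In the GENCODE vM21 gene models, the constant exons common to every alpha member covered 2860 bases and those common to every gamma member 2116 bases. The deposited table counted a read in these exons for every member of the cluster, so that the 14 alpha members held between 948 and 1068 counts each over the 24 libraries, and the 21 gamma members between 18528 and 26891. The lowest member count of a cluster in a library was therefore taken as its shared reads, which is an upper bound, and a member's count above it as its own reads, which is a lower bound of the reads in its own variable exon. By this measure, the 14 alpha members together held 419 own reads over 945 shared ones, and the 21 gamma members 15765 own reads over 18507 shared ones.

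Pcdhgc3, a C-type member of the gamma cluster (37806364 to 37841873), held 8384 of the gamma own reads, or 53.2%. Per length of own exon it averaged 5.63 own CPM per kb over the 24 libraries, and Pcdhga11, the next member, averaged 1.08. The remaining C-type gamma members were far lower on this scale, with 0.162 for Pcdhgc5 and 0.116 for Pcdhgc4, while Pcdhga6 had the lowest value, 0.0202 own CPM per kb. In the alpha cluster, the C-type member Pcdhac2 averaged 0.0906 own CPM per kb from 123 own reads in 17 libraries, and Pcdha12 averaged 0.0632, an order that did not hold on every day, as at day 3 in het Pcdha12 had the higher number of own reads in 2 of 3 lines. Pcdhac1, the remaining C-type alpha member, averaged 0.0296 and Pcdha3, the lowest, 0.00253. The highest beta member, Pcdhb17, averaged 0.0554 CPM per kb, all reads of this gene being its own. This order did not hold on every day either, as at day 3 in wt Pcdhb22 had 13, 8 and 19 reads and Pcdhb17 had 1, 5 and 0. The table held 2 genes named Pcdha11, and the one with the identifier ENSMUSG00000007440 had 44 own reads.

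**Figure D1:**
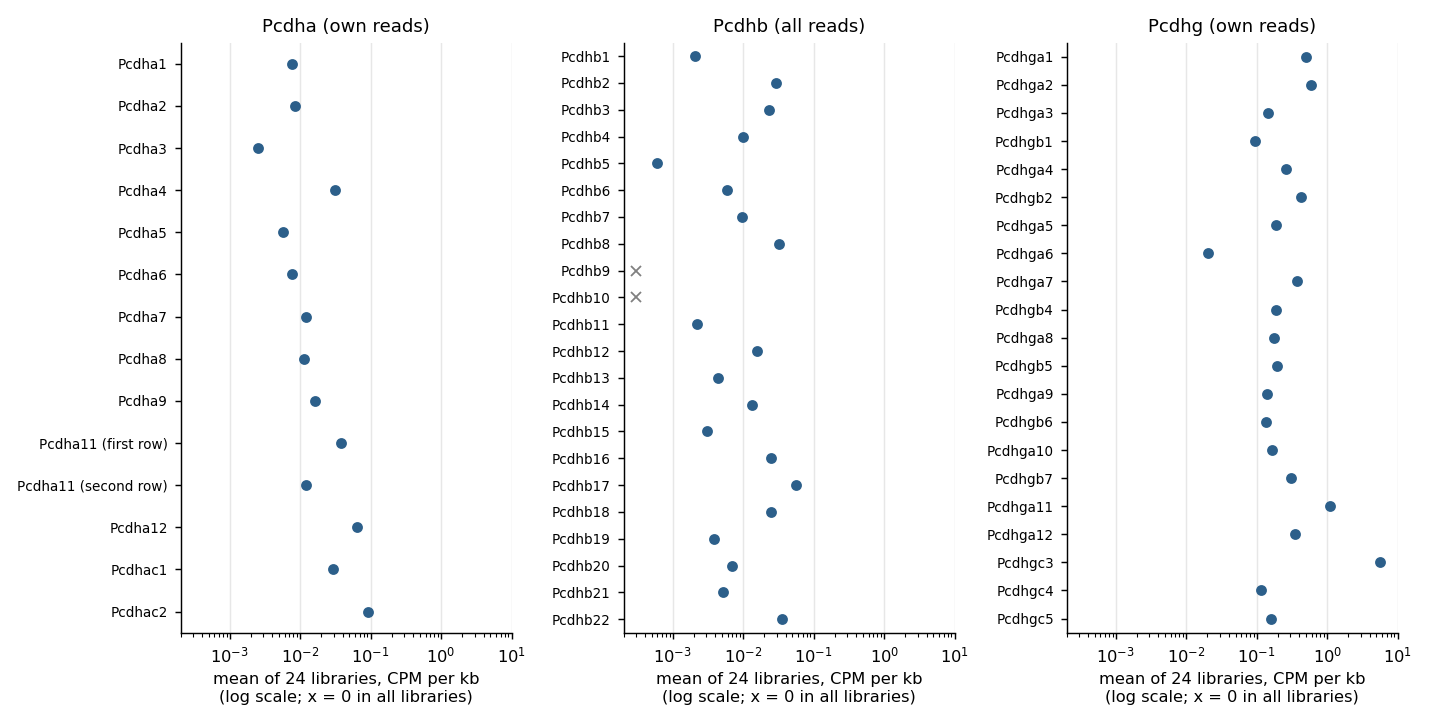
Mean own reads per member over the 24 libraries, in CPM per kb of own exon on a log axis, for the alpha, beta and gamma clusters, with a cross for members without any read. Pcdhgc3 at 5.63 and Pcdhga11 at 1.08 stand above every alpha and beta member, the highest of which are Pcdhac2 at 0.0906 and Pcdhb17 at 0.0554.

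Some own reads lay in exons that other genes also covered. An antisense gene, BC037039, overlapped 1559 bases of the Pcdhgc3 variable exon, and its count was 40.0 to 74.1 per 100 Pcdhgc3 own reads in each library. The counting was not stated to use strand, so reads of the sense and antisense genes cannot be told apart. Gm26672, on the other strand, overlapped 1381 bases of Pcdhga11, and Gm38182, on the same strand, overlapped 902 bases of Pcdhgc5. Gamma members also overlapped each other outside the constant exons, Pcdhgb1 and Pcdhga4 by 1038 bases and Pcdhgb4 and Pcdhga8 by 108. A read there was counted as own for both members. No antisense gene covered the shared exons. On the same strand, Gm38182 covered 628, Gm42416 446, and Gm37013 and Gm37388 91 each of the 2116 shared gamma bases, and their reads cannot be told apart from those of the gamma members there.

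The shared reads of the gamma cluster were present in every library and higher at each later day on average. In wt lines they were 20.6, 22.1 and 23.7 CPM at day 0, then 34.3, 39.2 and 33.6 on day 2, 68.0, 44.3 and 35.6 on day 2.5, and 63.1, 47.0 and 50.0 on day 3, for lines 1, 2 and 3. In het lines they were 23.2, 24.1 and 22.5, then 42.2, 44.0 and 36.6, 53.1, 45.0 and 58.5, and 78.0, 54.1 and 64.5. All 6 day 0 libraries were below all later ones, and wt line 1 was the highest of the wt lines at days 2.5 and 3. From day 0 to day 3 the mean rose 2.41-fold in wt and 2.82-fold in het.

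The shared reads of the alpha cluster were near 0 in stem cells. At day 0 the counts were 0, 0 and 5 in wt lines and 7, 0 and 2 in het lines, and a count of 0 in wt line 1 allows up to 0.188 CPM (3 counts, counting error only). They were 43, 42 and 37 counts at day 2 in wt and 15, 55 and 84 in het, so that het line 1 was low and het line 3 high on that day. At day 2.5 they were 15, 16 and 13 in wt and 47, 15 and 28 in het, below the day 2 value in 2 of 3 het lines. The 16 counts of wt line 2 came from the smallest library, and on the CPM scale this line went from 2.24 at day 2 to 2.21. At day 3 the shared alpha reads reached 81, 63 and 35 counts in wt and 131, 95 and 116 in het, with every het library above every wt library. On the CPM scale, the group means were 0.120 ± 0.208, 2.07 ± 0.204, 1.27 ± 0.817 and 3.21 ± 0.937 in wt from day 0 to day 3 (SD, n = 3), and 0.173 ± 0.199, 3.22 ± 2.29, 1.50 ± 0.767 and 5.63 ± 1.12 in het.

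The beta cluster was nearly silent. Over 24 libraries its 22 members held 594 counts in all, 77.1% of the 528 values were 0, and 1 to 10 members had a count in a library. Pcdhb9 and Pcdhb10 had no count anywhere, which allows up to 3 counts each over the 24 libraries. The highest count was 19, of Pcdhb22 in wt line 3 at day 3. The summed beta level was 0.570 ± 0.220 CPM at day 0 and 2.31 ± 0.533 at day 3 in wt, and 0.735 ± 0.459 and 1.25 ± 0.512 in het (SD, n = 3). At day 3 the wt lines were at 2.53, 2.71 and 1.71 CPM and the het lines at 0.921, 1.84 and 0.985, so that 1 het line lay within the wt range.

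**Figure D2:**
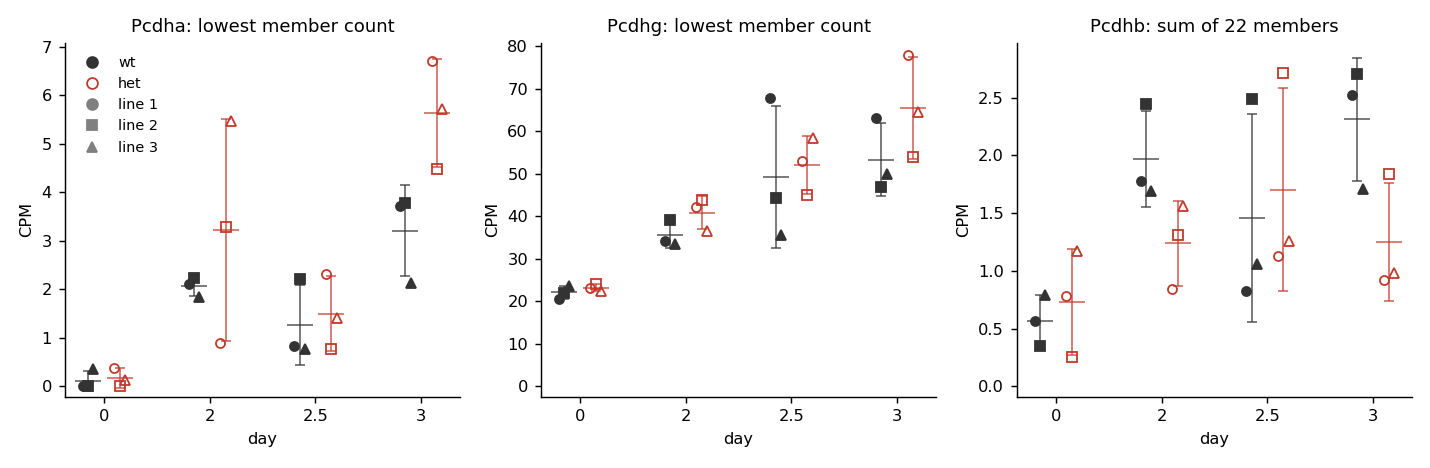
Level of each cluster by day, in CPM: the lowest alpha count, the lowest gamma count and the sum of the beta counts. Points are lines, bars mean and SD of 3 lines per genotype. Alpha rises from means of 0.120 and 0.173 at day 0 to 3.21 and 5.63 at day 3 in wt and het, with a lower level at day 2.5 than at day 2, while gamma rises from 22.1 and 23.3 to 53.4 and 65.5.

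Pcdhgc3 made up a larger share of the gamma own reads at day 3 than at day 0. Its own reads were 70, 45 and 37 in wt lines at day 0, then 237, 247 and 344 on day 2, 551, 154 and 311 on day 2.5 and 802, 595 and 448 on day 3. In het lines they were 56, 45 and 35, then 262, 189 and 220, 448, 334 and 495, and 1107, 668 and 684. The count of 154 came from the smallest library, with 7102655 counts. On the CPM scale, the own level rose 10.3-fold in wt and 14.7-fold in het from day 0 to day 3.

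Set against the shared reads of the same library, which removes depth, Pcdhgc3 had 14.8 ± 5.53 own reads per 100 shared ones in wt on day 0, then 39.5 ± 9.88, 48.0 ± 3.46 and 63.0 ± 11.5 on days 2, 2.5 and 3 (SD, n = 3). In het the values were 11.8 ± 1.70, 34.0 ± 7.36, 41.0 ± 2.05 and 61.0 ± 10.5, and the ratio was higher at each later day in every line. The other 20 gamma members together went from 51.0 ± 6.42 to 36.9 ± 6.32 own reads per 100 shared ones in wt and from 42.0 ± 8.46 to 34.9 ± 2.47 in het. Of all gamma own reads in a library, Pcdhgc3 thus made up 16.7 to 27.1% at day 0 and 56.0 to 68.8% at day 3. Per length, its own exon had 6.31 to 13.3% of the coverage of the shared exons at day 0 and 32.7 to 47.6% at day 3, and the own exons of all gamma members together stayed between 29.0 and 73.8% in the 24 libraries.

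**Figure D3:**
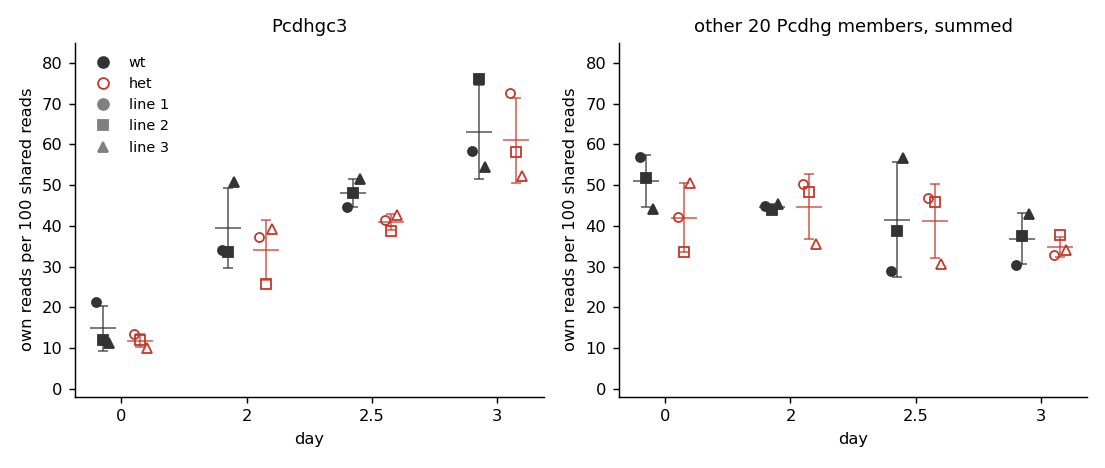
Own reads per 100 shared gamma reads by day, for Pcdhgc3 and for the other 20 gamma members together. Points are lines, bars mean and SD of 3 lines per genotype. Pcdhgc3 rises from 14.8 and 11.8 to 63.0 and 61.0 in wt and het, and the others go from 51.0 and 42.0 to 36.9 and 34.9.

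Members with few own reads also had large changes, so the pooled value of the other 20 does not hold for each of them. From day 0 to day 3, mean own CPM of Pcdhgc5 went from 0.134 to 1.09 in wt and from 0.183 to 1.54 in het, and that of Pcdhgb6, named after its values were seen, from 0 to 0.914 and from 0.0217 to 0.820. Pcdhgc5 had 0 to 6 own reads in every day 0 library and 15 to 34 in every day 3 library. The share of all genes with no overlap was not taken for day 3 against day 0. For day 2 against day 0 it was 54.8% of all genes tested on counts in wt and 63.3% in het. Pcdhgc4 had 13, 1 and 1 own reads at day 3 in wt and 35, 15 and 21 in het, against at most 2 at day 0. Pcdhga11 had own reads in all 24 libraries, from 9 to 100. Pcdhac2 had 12, 0 and 5 own reads at day 3 in wt and 3, 6 and 13 in het, which overlap, and Pcdha12 had 3, 1 and 3 in wt and 24, 8 and 7 in het. Pcdha12 and Pcdhgc4 thus had all het above all wt values at day 3, as did Pcdha8 and Pcdhga7, named after their values were seen. On whole counts 8.29% of all genes tested had this pattern, and a share on own reads was not taken.

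The first comparison was het against wt on each day. No member passed the test (edgeR quasi-likelihood, adjusted p over all genes, threshold 0.05) on any of the 4 days, against 0%, 0.551%, 0% and 0.00638% of all genes tested in the order of the days. None passed on counts summed per line, against 0.00544% of all genes, and the DESeq2 Wald test also called 0 members in each. At day 0 the 21 gamma members passed the filter on low counts and no alpha or beta member did. All 35 alpha and gamma members passed it on the later days and on the summed counts. Of the beta members, Pcdhb17 passed at day 2.5, and Pcdhb17 and Pcdhb22 on the summed counts.

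The alpha members had a higher het to wt median than the gamma members in each comparison that tested both. The alpha median log2 fold change was 0.63 on day 2, 0.37 on day 2.5, 0.80 on day 3 and 0.66 on the summed counts. Before adjustment, p was under 0.05 for all 14 alpha members at day 3 and on the summed counts, and, on counts with shared reads, for no other member in any of these comparisons. Over all genes it was under 0.05 for 1432 of 15686 at day 3 and 1663 of 18371 on the summed counts. The adjusted p was 0.404 to 0.51 at day 3 and 0.414 to 0.466 on the summed counts. For Pcdha12 the day 3 log2 fold change was 0.89 (SE 0.29, edgeR adjusted p = 0.404), for Pcdhac2 it was 0.76 (SE 0.28, 0.457) and for Pcdhac1 0.75 (SE 0.30, 0.51). All 14 had every het line above every wt line at day 3, a pattern of 8.29% of all genes tested, and on the summed counts, where it held for 7.78%. Since these members count mostly the same reads, this amounts to about 1 measurement: the shared reads alone gave 0.79 at day 3 (SE 0.29, edgeR adjusted p = 0.459). Leaving out 1 line in turn, the alpha median stayed between 0.58 and 0.94 at day 3, and ran from 0.01 to 1.07 at day 2 and from -0.09 to 0.93 at day 2.5.

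The counts of gamma members, shared reads included, had median log2 fold changes of 0.05, 0.19, 0.09 and 0.28 in the order of the days and 0.21 on the summed counts. Pcdhgc3 at day 3 had a log2 fold change of 0.28 (SE 0.15, edgeR adjusted p = 0.626), Pcdhgc4 of 0.30 (0.571) and Pcdhgc5 of 0.29 (0.583), all on counts that are mostly shared reads. The adjusted p of the 21 members on the summed counts was 0.569 to 0.659, but without wt line 1 it was under the threshold for 17 of them, all higher in het, and for no alpha member, in a fit that called 0.612% of all genes tested higher and 2.15% in either direction. Wt line 1 was the wt line with the highest gamma level at days 2.5 and 3. On own reads alone, Pcdhgc3 had log2 fold changes of -0.25, -0.03, -0.12 and 0.27 on the 4 days, none of which passed the test, a fit chosen after seeing the data in which 0, 0.533, 0 and 0.00638% of all genes passed. In the same fit, the day 3 difference in own reads of Pcdhgc4 was 2.15 on the log2 scale (SE 0.79, edgeR adjusted p = 0.461) and that of Pcdhgc5 0.48 (0.777), and no member passed. The unadjusted p of own reads was under 0.05 for Pcdhgc4 at day 3, and, named after their values were seen, for Pcdhga1 at day 2, Pcdhga7 at day 3 and both on the summed counts. Pcdhgc4 at day 3 and Pcdhga1 at day 2 passed the filter on low counts through the het libraries, which largely fixed their direction. Their own reads in wt were 13, 1 and 1 for Pcdhgc4 and 7, 26 and 2 for Pcdhga1. Among beta members, Pcdhb17 had 0.16 (SE 0.64, edgeR adjusted p = 0.965) and Pcdhb22 -0.59 (SE 0.56, 0.801) on the summed counts.

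**Figure D4:**
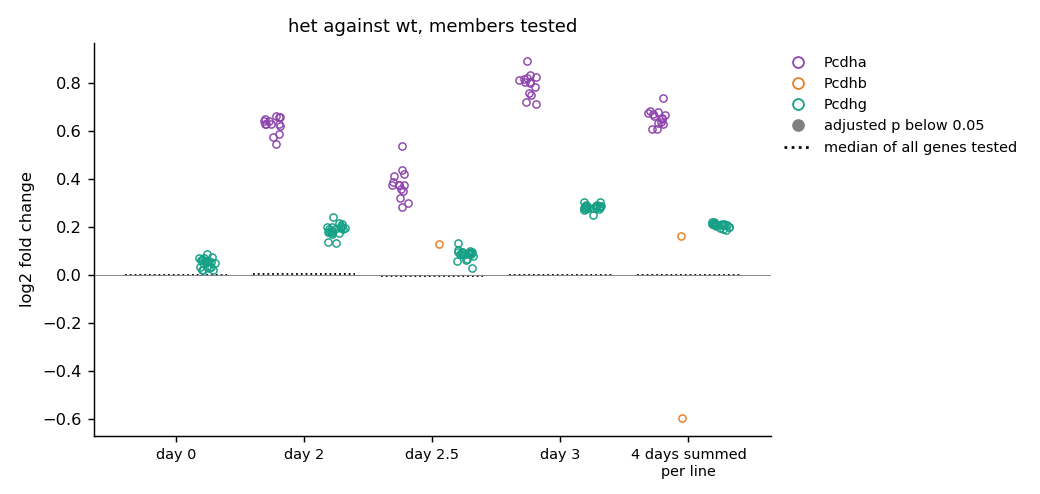
Log2 fold change of each tested member, het against wt, on each day and on counts summed per line, with the median of all genes tested as a dotted line. Points would be filled at an adjusted p under 0.05, and none is. Alpha members lie around their medians of 0.80 at day 3 and 0.66 on the summed counts, above the gamma medians of 0.28 and 0.21.

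The second comparison followed each genotype from stem cells to day 2. The count of all 35 tested members, shared reads included, was called higher in both genotypes, against 22.4% of all genes tested in wt and 28% in het (44.3% and 56.1% in either direction). No alpha member passed the filter on low counts among the day 0 libraries alone, so the alpha members entered through the day 2 libraries in which they are high, and their direction was largely fixed by this. The count of 35 is also largely 1 alpha and 1 gamma measurement: with the shared reads as 1 value per cluster, 2 values were called in each genotype, the alpha one by 4.13 on the log2 scale in wt and 4.11 in het and the gamma one by 0.70 and 0.83. The median over the members was 4.13 and 4.11 for alpha and 0.71 and 0.83 for gamma. The own reads of members did not all move this way, for example those of Pcdhga1, named after its values were seen, with -1.61 in wt (edgeR adjusted p = 0.145), and Pcdha1, Pcdha2 and Pcdha6, also named afterwards, had no own read in any day 2 library. In wt Pcdhga1 passed the filter on low counts through the day 0 libraries. In het its own level went from 1.67, 1.84 and 1.95 CPM at day 0 to 2.76, 1.97 and 1.70 at day 2. The count of Pcdhgc3 rose by 0.98 in wt (SE 0.14, edgeR adjusted p = 5.63e-05) and 1.08 in het (SE 0.11, 4.6e-07), and that of Pcdhac2 by 4.46 (SE 1.04, 0.00314) and 3.77 (SE 0.77, 0.0006). The counts of Pcdhac1 rose by 4.24 and 4.13, those of Pcdhgc4 by 0.71 and 0.82, and those of Pcdhgc5 by 0.73 and 0.88. The size of the alpha change rests on at most 7 shared reads in a day 0 library: its median was 3.47 without wt line 2, where 1 alpha and 20 gamma members were called, and in het it ran from 3.33 without het line 3 to 5.92 without het line 1. Without wt line 3, the remaining wt day 0 libraries had no shared alpha read, so no fold could be given.

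From day 2 to day 2.5, the first hours of Wnt activation, the calls were of gamma members and upward. In wt, Pcdhgc3 was the 1 member called, with a log2 fold change of 0.54 (SE 0.19, edgeR adjusted p = 0.0448), against 14.6% of all genes tested higher and 29.1% in either direction. In het the counts of 19 gamma members, shared reads included, were called higher, against 21.8% of all genes tested higher and 44.7% in either direction, with a gamma median of 0.33. The wt gamma median was higher, 0.46, with 18 of 21 members under an unadjusted p of 0.05, so the number of calls does not order the genotypes by size. The het calls are mostly the same reads, and as 1 value the shared gamma reads rose by 0.33 in het (edgeR adjusted p = 0.0374) and had 0.46 in wt (0.109), while on own reads in het Pcdhgc3 was the 1 member called higher and Pcdhgc5 was called lower. The own reads of Pcdhgc5 passed the filter on low counts through the day 2 libraries in which they were high, which largely fixed this direction. On counts, Pcdhgc3 rose by 0.41 (SE 0.11, edgeR adjusted p = 0.00858), Pcdhga11 by 0.38 (0.0228) and Pcdhgc4 by 0.35 (0.0286), while Pcdhgc5, which was not called, had 0.28 (0.0756). The count of 19 was 9 with the line as a block (21.5% of all genes tested higher), 0 without het line 3 and 1 without het line 1, and the wt call was lost without wt line 1 or 2. Alpha medians were -0.79 in wt and -1.09 in het, and no alpha member passed in edgeR, where 1 in het and 0 in wt had an unadjusted p under 0.05 and the DESeq2 Wald test called 1 lower in het and 0 in wt. Leaving out 1 line in turn, the alpha median ran from -1.32 (wt line 2) to -0.55 (wt line 1) in wt and from -1.95 (het line 1) to -0.45 (het line 3) in het. Pcdhac2 had -0.98 in wt (edgeR adjusted p = 0.175) and -1.28 in het (0.0618). Without het line 1, the het line whose alpha level went up in this step, all 14 alpha members were called lower in het, in a fit that called 14.8% of all genes tested lower.

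From day 2.5 to day 3 the shared alpha reads rose in het, by 1.87 on the log2 scale (edgeR adjusted p = 0.00262), and had 1.46 in wt (0.0671). With these reads in the count of each, all 14 alpha members were called higher in het, against 13.8% of all genes tested higher and 29.8% in either direction, with a median of 1.87 and adjusted p of 0.00207 to 0.00318, which amounts to about 1 measurement. The own reads of single members were too few to be read in this way, for example 1, 2 and 0 then 2, 0 and 1 for Pcdha4 in het, named after its values were seen. The count of Pcdhgc3 rose by 0.50 (SE 0.15, edgeR adjusted p = 0.027), the 1 gamma member called, and the gamma median was 0.30, with this call lost without het line 1 or 3. In wt, 1 member passed, against 8.99% of all genes tested higher and 19.1% in either direction: the Pcdha11 gene ENSMUSG00000007440, with a log2 fold change of 1.61 (SE 0.49, edgeR adjusted p = 0.0428). The other 13 alpha members had adjusted p up to 0.079 around a median of 1.46, and Pcdhgc3 had 0.26 (0.376). Leaving out any 1 wt line, no alpha member was called in wt, with the alpha median between 1.10 and 1.87, and without wt line 1 a gamma member was. With the line as a block, the count was 14 alpha members in wt, and 14 alpha and 17 gamma members in het, where 15.3% and 14.4% of all genes tested were called higher.

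**Figure D5:**
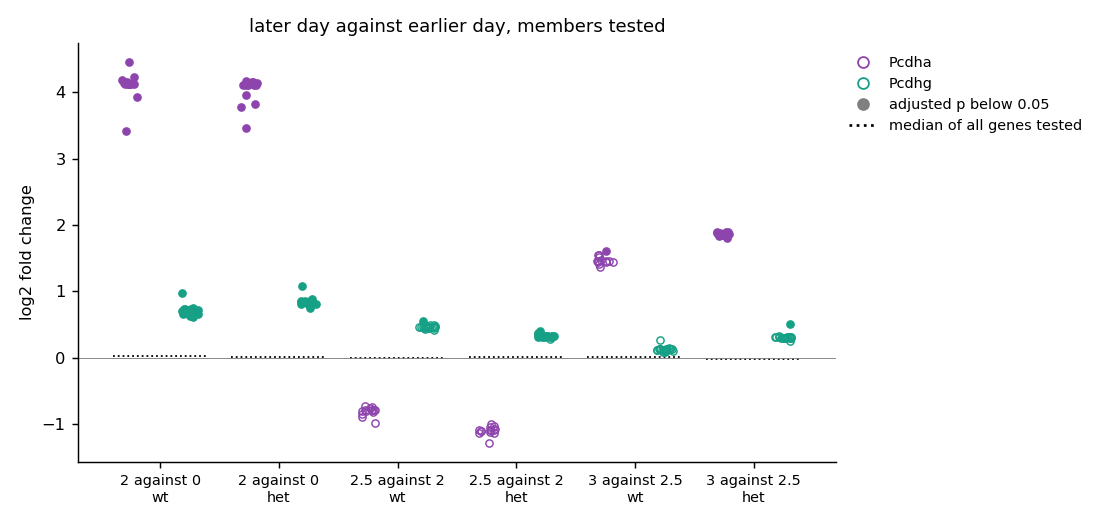
Log2 fold change of each tested member from day 0 to 2, 2 to 2.5 and 2.5 to 3, in wt and het, with filled points for an adjusted p under 0.05 and a dotted line for the median of all genes tested. Alpha medians are 4.13 and 4.11, then -0.79 and -1.09, then 1.46 and 1.87 in wt and het, and gamma medians never exceed 0.83.

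Own and shared reads were also tested as separate quantities, a fit chosen after seeing the data, with 44.1 and 56% of all genes called from day 0 to 2, 29.2 and 44.7% from day 2 to 2.5 and 19 and 29.8% from day 2.5 to 3 in wt and het. The own reads of Pcdhgc3 rose by 2.11 on the log2 scale in wt (SE 0.30, edgeR adjusted p = 6.04e-05) and 2.33 in het (SE 0.24, 6.92e-07) from day 0 to 2, where the shared gamma reads rose by 0.70 and 0.83. From day 2 to 2.5 they rose by 0.74 (SE 0.23, 0.0280) and 0.62 (SE 0.18, 0.0109). From day 2.5 to 3 they rose by 0.90 in het (SE 0.21, 0.00743), and had 0.51 in wt (SE 0.20, 0.0938). The own reads of Pcdhgc5 in het rose by 3.28 (edgeR adjusted p = 0.00317), then fell by 1.87 (0.0264) and rose by 1.57 (0.0234) over the 3 steps. These reads were 3, 6 and 0 at day 0 and 34, 37 and 19 at day 2. They were 7, 7 and 16 at day 2.5 and 29, 34 and 31 at day 3. In each step they passed the filter on low counts through the day on which they were high, which largely fixed the direction. In wt they had -0.28 (0.818) and 0.34 (0.710) in the last pair of steps, and the difference between the genotypes was not called (edgeR adjusted p = 0.967 and 0.999). Named after their values were seen, Pcdhga5 in wt (3.17, edgeR adjusted p = 0.0369) and Pcdhga7 and Pcdhga9 in het (1.74, 0.0496 and 3.38, 0.00725) were also called from day 0 to 2. Each of these passed the filter on low counts only through the day 2 libraries in which it was high, which largely fixed the direction. Their day 0 own reads were 0, 1 and 3 for Pcdhga5, 10, 7 and 7 for Pcdhga7, and 1, 0 and 3 for Pcdhga9.

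Whether the change over a step differed between the genotypes was tested directly. No member and no gene of the table passed this test for any of the 3 steps (edgeR, 0% of all genes called each), on counts with shared reads no member had an unadjusted p under 0.05, and DESeq2 called 0 members. On own reads, Pcdhga11 had an unadjusted p of 0.0476 and Pcdhgc4 of 0.0446 from day 2 to 2.5, and Pcdhga11 of 0.0488 from day 2.5 to 3, with edgeR adjusted p of 0.967, 0.967 and 0.999. A larger number of calls in het is therefore not a measured difference between het and wt.

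Known regulators of these clusters were followed as a list of 18, all tested. From day 0 to day 2, 5 rose and 5 fell in wt, and 5 rose and 7 fell in het, where 44.3% and 56.1% of all genes tested were called. Trim28, a corepressor that recruits histone methylation, had log2 fold changes of -1.92 and -1.69, Ctcf of -0.42 and -0.47, and the cohesin subunit Stag2 of 1.24 and 1.22. The de novo DNA methyltransferase Dnmt3b had -1.47 and -1.73 from day 2 to day 2.5, and -1.35 and -0.89 from day 2.5 to day 3, and Dnmt3a had -1.06 and -1.44, then -1.16 and -0.71. In all, 2 regulators rose and 7 fell from day 2 to day 2.5 in wt, and 0 and 9 in het, while 6 rose and 3 fell from day 2.5 to day 3 in wt, and 4 and 4 in het, beside 29.1% and 44.7%, then 19.1% and 29.8%, of all genes. Without wt line 2, the share called in wt from day 2.5 to day 3 was 0.186% in place of 19.1%, so the wt calls of this step depend on that line. Between het and wt, Smchd1 itself was the 1 regulator called, at days 2 and 3 and on the summed counts.

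Of 19 intracellular partners of protocadherins, all tested, 6 rose and 2 fell from day 0 to day 2 in wt, and 7 and 2 in het, beside 44.3% and 56.1% of all genes called, from which the list was not tested to differ. Cyfip2, a subunit of the WAVE actin complex, rose by 1.43 and 1.64, and the focal adhesion family kinase Ptk2b had -1.30 and -1.36. From day 2 to 2.5, 4 rose and 3 fell in wt and 3 rose and 7 fell in het, and from day 2.5 to 3, 3 rose in wt and 6 in het with none lower, beside the same shares of all genes as for the regulators. Among 12 non-clustered protocadherins, which lie elsewhere in the genome or outside these clusters and share no constant exon, 4 to 9 were tested. Pcdh18 rose by 3.86 in wt and 3.92 in het from day 2 to 2.5, and Pcdh1 had -1.14 and -1.32. Pcdh7 had no count in any day 2 library and Pcdh11x none in a wt one, so such genes entered the step through the day 2.5 libraries, which fixed their direction, and no count over the list is read from it. None of the partners or non-clustered protocadherins was called between het and wt.

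Neighbouring genes were taken as the 52 other genes between the members or within 500 kb of the outermost ones. Of the 35 tested from day 0 to day 2, 7 rose and 9 fell in wt, and 11 and 8 in het, close to the 44.3% and 56.1% of all genes called, with medians of 0.14 and 0.17 on the log2 scale. None of 34 to 40 tested neighbours was called between het and wt on any day or on the summed counts. Neural markers, the cell type in which these genes are best known, summed to 142 to 194 CPM in wt and 180 to 280 CPM in het at day 3, with Neurog1 and Dcx at 0 in every wt library, and 3 of 8 tested rose and 3 fell from day 0 to day 2 in both genotypes, beside the 44.3% and 56.1% of all genes called. From day 0 to day 2, where the alpha medians were 4.13 and 4.11, the neural medians were 0.19 and 0.07. The neural sums were 385 to 446 CPM at day 0 and 200 to 233 at day 2 in wt, and 391 to 407 and 221 to 246 in het. From day 2 to day 2.5, where the alpha medians were -0.79 and -1.09, none of 9 tested neural markers rose and 3 fell in wt and 5 in het, with medians of -0.37 and -0.87. In that step 29.1% and 44.7% of all genes were called. From day 2.5 to day 3, where the alpha medians were 1.46 and 1.87, 2 rose and 1 fell in wt and 3 rose and 1 fell in het, with medians of 0.56 and 0.49. In this step 19.1% and 29.8% of all genes were called. The part of the neural markers in the protocadherin levels, and that of the endoderm markers, was not tested.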

How the data were processed

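Polyadenylated RNA of 24 libraries had been sequenced as single-end reads of 75 bases. Per the study's methods and the submitters' processing notes, the authors trimmed reads with Trim Galore 0.4.4, aligned them with HISAT2 2.0.5 to GRCm38.p6 and counted them per gene in SeqMonk. The deposited values are raw counts. A read in an exon shared by several genes was counted for each, and the use of strand in counting was not given in the sources used here. Of the same files, 8 columns of group means and the log2 RPKM tables, which hold no clustered protocadherin, were not used.

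Genes were tested with edgeR 4.0.16 (quasi-likelihood F test, TMM factors, filterByExpr by group) in R 4.3.3, with Benjamini-Hochberg adjustment over all genes tested and a threshold of 0.05. Each comparison used only its own libraries. CPM values used TMM library sizes. The script was tested on simulated data. DESeq2 1.42.0, no filter, 1 value of shared reads per cluster, 1 fit of all libraries, a replicate block and leaving out each line were alternatives. Python 3.11.15 and matplotlib 3.10.9 were used for the rest. Depth was 7102655 to 20818018 counts per library, and intervals of 0 counts cover counting error only, as reads had no molecular identifiers.

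The line number pairs the days of a genotype, since it names the same cell line. Deviations of the same line on successive days correlated by -0.09 to 0.42 (14431 genes). Lines of wt and het with the same number are different lines and were not paired. P-values measure the spread between lines.

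Named members were the C-type members, in each cluster the 3 with the highest and the 1 with the lowest mean CPM, up to 3 called members per cluster and comparison, and beta members that passed the filter. Members and lists were chosen with earlier results of these data known. Gene models came from GENCODE vM21, in which 35382 of the 35591 genes had the same place.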

Additional observations from a re-analysis of the deposited data

Results flagged for a closer look

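The lines of the genotypes moved in opposite directions in 2 values, and neither difference was tested. The summed beta level went up from day 2.5 to day 3 in all 3 wt lines, by 0.856 CPM on average, and down in all 3 het lines, by -0.454 CPM, a difference of -1.31 CPM. The own reads of Pcdhga3, chosen after its values were seen, went up from day 0 to day 2 in all 3 wt lines, by 0.280 CPM on average, and down in all 3 het lines, by -0.133 CPM, a difference of -0.413 CPM. These rest on small counts, as Pcdhga3 had 0, 2 and 1 own reads at day 0 and 6, 11 and 3 at day 2 in wt, and 2, 7 and 4 then 1, 6 and 0 in het.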

How the results depend on the processing

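Depth limits the alpha and beta clusters, whose members had at most 155 and 19 counts in a library, and alpha and gamma members share most of their reads, so a count of called members is not a count of independent genes. Where members were called, in the day steps, the count moved by over 1.5 times in 28 of 60 alternatives. Where none was called, in het against wt and in the tests between genotypes of a step, the count stayed at 0 in 99 of 100 alternatives, which is the lowest it can be. Of 233 values of named members, 213 kept their direction and side of the threshold, 20 were no longer called and 0 reversed. The cause of these changes was not tested, except where shared reads were taken as 1 value per cluster, which leaves at most 1 alpha and 1 gamma value to call.

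Taking 1 value per cluster gave counts of 2 for wt and 2 for het from day 0 to 2, 0 and 1 from day 2 to 2.5, and 0 and 1 from day 2.5 to 3. With own reads as separate values, a fit chosen after seeing the data, they were 4 and 6 (Pcdhgc3, the shared reads and Pcdhga5 in wt) from day 0 to 2, 3 in het from day 2 to 2.5, and 0 and 3 from day 2.5 to 3. With no filter on low counts they were 17 in wt from day 2 to 2.5, and 14 and 35 from day 2.5 to 3. In 1 fit of 24 libraries they were 20 and 1 from day 2 to 2.5, and 0 in wt from day 2.5 to 3, where DESeq2 size factors gave 2 and the DESeq2 Wald test 14. With the cell line as a replicate block, the counts were 9 in het from day 2 to 2.5, 14 in wt and 31 in het from day 2.5 to 3. The block changed no other count by over 1.5 times. In het against wt, where lines of a number share only that number, the block called 0 members on each day and on the summed counts.

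Leaving out each line in turn gave 0 to 17 called members for het against wt on the summed counts (17 without wt line 1). From day 0 to 2 in wt it gave 21 to 35 (21 without wt line 2). From day 2 to 2.5 it gave 0 to 1 in wt (0 without wt line 1 or 2) and 0 to 21 in het (0 without het line 3; 14 alpha members lower and 1 gamma higher without het line 1). From day 2.5 to 3 it gave 0 to 1 in wt (0 without wt line 2 or 3, and 1 gamma in place of 1 alpha member without wt line 1) and 14 to 15 in het.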
